A study of Mus musculus with 27 samples.

Results

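The genes described here are 39 interferon response and GTPase genes, taken by symbol from the deposited liver tables of *Kdm5b* floxed mice. They were 39 of the 17655 genes listed, all 39 were present in every table, and all 39 passed the filter on low counts in each comparison. Whole-liver RNA was sequenced from 27 mice that were all *Kdm5b* fl/fl and all fed a Western diet with alcohol (WDA), with 3 individual mice in each of 9 groups. WT mice received an AAV control vector, whose promoter the labels do not give. The study names control vectors with the CMV and with the TBG promoter. KO mice received AAV8-CMV-Cre (AAV-CMV-Cre in the Res labels), whose promoter is not restricted to a cell type, and HepKO mice received AAV8-TBG-Cre, whose promoter directs Cre to hepatocytes. The WDA groups were WT, KO and HepKO females and WT and KO males, labelled with 8 weeks of diet. The resolution (Res) groups were WT and KO females and males, labelled with 16 weeks of diet and 4 weeks of resolution. The labels gave no ages, and the study's methods have the mice start the diet as young adults. In the study, mice in resolution were moved to chow and water without alcohol. The WDA and Res mice belonged to different numbered experiments. The labels name the vector before the diet in WDA groups and between diet and resolution in Res groups. Stage, experiment, weeks of diet, the diet at sampling, alcohol withdrawal and the time of the vector therefore cannot be told apart.

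Interferons are secreted signals that put cells into a defensive state. Type I interferons act through a receptor whose signal leads a complex with STAT2 and IRF9 to bind the interferon-stimulated response element (ISRE). Interferon gamma, made mostly by T cells and NK cells, acts through another receptor, and its signal is read at the gamma-activated site (GAS). In the liver, hepatocytes, Kupffer cells and endothelial cells can all respond. The members are grouped here by role: transcription factors (*Stat2*, *Irf9*, *Irf1*, *Irf7*), chemokines that draw T cells (*Cxcl9*, *Cxcl10*), RNA and nucleic acid sensors with the ISG15 system, the IFIT family of RNA-binding antiviral proteins, other antiviral effectors, guanylate-binding proteins (GBPs), immunity-related GTPases (IRGs) and genes that make peptides for MHC class I. From general knowledge, 16 members were also listed as led by type I interferon and 16 as led by interferon gamma, and 7 were left in neither list, since most members answer both signals to some degree.

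The promoters of the members carried the letters of these elements more often than promoters in general. RefSeq windows of GRCm38.p6, from 250 bases before to 50 bases after the start, were present for 32 of the 39 members. The ISRE core, here GAAA repeated after 2 bases of any kind and read on both strands, was in a window of 18 of these 32 members (56.2%), against 3.99% of all 27025 genes with a window. The GAS letters TTCNNNGAA, which read the same on both strands, were in a window of 11 members (34.4%), against 9.55% of all genes. GAS letters were held by 7 of 14 gamma-led members (50%) and by 2 of 13 type I-led members (15.4%). Since the members were picked as interferon response genes, these shares are a description, and a match of letters is not a bound site.

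The stretches below are upstream of the start, read 5′ to 3′ on the gene's strand, with the matches in capitals. They are shown for some of the members whose level turned out to differ between groups, and for *Isg15* and *Ifit1* as members of the type I-led list. *Tgtp2* is shown beside *Tgtp1*, although it was not called in any comparison. *Stat2* held an ISRE core and is not shown. Neither ISRE core nor GAS letters were in the windows of 10 members, *Cxcl9* among them. In *Isg15* (chr4:156200855-156200916, minus strand) and *Ifit1* (chr19:34640765-34640833, plus strand) only ISRE cores were matched, likewise in *Rsad2* (chr12:26456543-26456592, minus strand), *Cxcl10* (chr5:92349073-92349122, minus strand), *Gbp2* (chr3:142620584-142620633, plus strand) and *Gbp3* (chr3:142559979-142560034, plus strand).
Isg15: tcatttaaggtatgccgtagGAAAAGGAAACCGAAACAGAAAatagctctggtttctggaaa
Ifit1: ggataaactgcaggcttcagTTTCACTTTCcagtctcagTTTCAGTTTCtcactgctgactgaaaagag
Rsad2: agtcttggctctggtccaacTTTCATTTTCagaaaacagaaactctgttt
Cxcl10: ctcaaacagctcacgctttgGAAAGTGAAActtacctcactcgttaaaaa
Gbp2: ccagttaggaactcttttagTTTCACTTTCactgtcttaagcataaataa
Gbp3: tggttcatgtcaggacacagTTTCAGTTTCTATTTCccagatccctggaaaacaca

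A further layout was found in 4 of the 6 IRGs with a window. In *Tgtp1* (chr11:48992294-48992354, minus strand), *Tgtp2* (chr11:49064253-49064313, minus strand), *Igtp* (chr11:58199491-58199551, plus strand) and *Irgm2* (chr11:58214882-58214942, plus strand), GAS letters were followed after 2 bases by an ISRE core. This spacing was found in 4 of the 32 members and in 5 of all 27025 genes, these 4 included. No other spacing was counted over all genes. The stretches of *Tgtp1* and *Tgtp2* are closely alike, as are those of *Igtp* and *Irgm2*, so the 4 are not independent matches. Of the other IRGs, *Irgm1* held ISRE cores without GAS letters, *Ifi47* held neither and *Iigp1* had no window. In *Bst2* (chr8:71537567-71537628, minus strand), the GAS letters overlapped an ISRE core. The first capital block in the IRG stretches is the GAS match and the second is the ISRE core, and in *Bst2* they run together.
Tgtp1: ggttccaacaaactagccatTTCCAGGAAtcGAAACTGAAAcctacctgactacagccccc
Tgtp2: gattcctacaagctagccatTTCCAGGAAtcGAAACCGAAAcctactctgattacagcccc
Igtp: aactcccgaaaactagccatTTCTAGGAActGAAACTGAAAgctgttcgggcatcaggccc
Irgm2: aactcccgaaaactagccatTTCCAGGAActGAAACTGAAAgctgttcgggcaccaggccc
Bst2: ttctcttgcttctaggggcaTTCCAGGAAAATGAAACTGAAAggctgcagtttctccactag

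Many members lie in clusters of related genes, given here in GRCm38.p6. On chromosome 11, *Irgm1* (48865245 to 48871420), *Tgtp1* (48985329 to 48992246), *Tgtp2* (49057196 to 49064212) and *Ifi47* (49076587 to 49096987) form a stretch, and *Igtp* (58199556 to 58207592) lies beside *Irgm2* (58214977 to 58222783). The 4 IFIT members lie together on chromosome 19, from *Ifit2* (34550550 to 34576534) to *Ifit1* (34640889 to 34650009). *Gbp7*, *Gbp3* and *Gbp2* (142620663 to 142638008) are neighbours on chromosome 3, and *Cxcl9* (92321331 to 92328079) and *Cxcl10* (92346638 to 92348889) on chromosome 5. *Bst2* is on chromosome 8 (71534255 to 71537472).

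Near-identical genes limit how well some members can be told from each other. Of the 50-base words in *Tgtp1* transcripts, 81.2% also occurred in another gene, mainly *Tgtp2*, and the share was 90.6% for *Tgtp2*. It was 51.2% for *Ifit3* and 45.0% for *Ifit3b*, which share words with each other, 90.2% for *Gbp6* and 57.6% for *Oas1a*. The counting of reads that fit several of these genes is not given in the sources used here, so values of these members are uncertain as single genes. It was at most 12.7% (*Gbp7*) for every other member and 0 for 17 of the 39, *Stat2*, *Rsad2*, *Bst2*, *Oasl2* and *Cxcl10* among them.

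Libraries held 14634580 to 19388257 counts (median 17944535), and the lowest count of any member in any library was 18. CPM, the count scaled to library size with trimmed mean of M-values (TMM) factors, compares a gene between mice. FPKM, which also divides by transcript length, compares genes with each other. Hepatocyte markers were abundant in every library, and Y-linked transcripts were at a summed 88.8 to 158 CPM in the 12 males and at most 2.15 CPM in the females. Res KO male mouse 5 had 12 female-biased liver transcripts at a median of 0.377 of the Res female level, against at most 0.0224 in the other males. The comparisons of Res KO males with Res WT males and with WDA KO males are therefore also given without it. For the interactions, only the range over all mice left out is given. *Kdm5b*, the targeted gene, was 21.5, 25.1 and 31.0 CPM in WDA WT females and 24.3, 15.9 and 14.4 CPM in KO females, so mouse 1 of that KO group lay within the WT range. It was 14.2, 8.28 and 17.6 CPM in HepKO females. In WDA males it was 23.8 to 24.6 CPM in WT and 20.3 to 21.8 CPM in KO mice, in Res females 16.6 to 17.8 and 10.6 to 13 CPM, and in Res males 18.8 to 19.6 CPM in WT and 17.4, 7.89 and 12.9 CPM in KO mice 5, 6 and 11.

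On the FPKM scale, averaged over all 27 livers, *Bst2*, which encodes tetherin and holds budding virus at the cell surface, had the highest level of the members at 163. *Iigp1*, an IRG that damages the membranes around intracellular parasites, followed at 73.0, and *Irgm1*, a regulator of the other IRGs, at 25.0. *Psmb8*, an immunoproteasome subunit, was at 21.4, and *Irf7*, the factor that amplifies type I interferon transcription, at 18.1. The lowest levels were those of *Ifi44* (1.12) and *Ifit2* (1.36). The level of *Tgtp1*, an IRG, varied most between livers, 30.1-fold on the CPM scale, followed by *Cxcl10* at 11.4-fold and *Cxcl9* at 7.74-fold. *Irf7* at 1.86-fold and *Ifih1*, which encodes the RNA sensor MDA5, at 1.92-fold varied least.

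In some livers most members were high or low at once. Taken as deviations from group means, the median correlation over all pairs of members was 0.51 (-0.65 to 0.95). Over gamma-led pairs it was 0.70. Counts of members in the comparisons below are therefore not counts of independent observations, and each comparison rests on 3 mice per group. A score was taken as the mean, over the members, of log2 CPM relative to each gene's mean across the 27 livers. It was highest in Res KO male mouse 11 (0.71) and WDA KO male mouse 16 (0.69), and lowest in the 3 HepKO females (-0.50, -0.44 and -0.48). Res KO female mouse 4 had the lowest value of its group for 38 of the 39 members, and its score was -0.42 where the other two mice were at 0.42 and 0.49. WDA KO female mouse 1 had the highest value of its group for 36 members, with a score of 0.27 against -0.35 and -0.31. In other livers members differed in direction: WDA WT female mouse 7 was the highest of its group for 9 members and the lowest for 22. The SD of the score was 0.51 in Res KO females, 0.35 in WDA KO females and Res KO males, 0.30 in Res WT males, 0.28 in WDA KO males, 0.19 in Res WT females, 0.081 in WDA WT males, 0.053 in WDA WT females and 0.032 in HepKO females (n = 3 each).

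**Figure D1:**
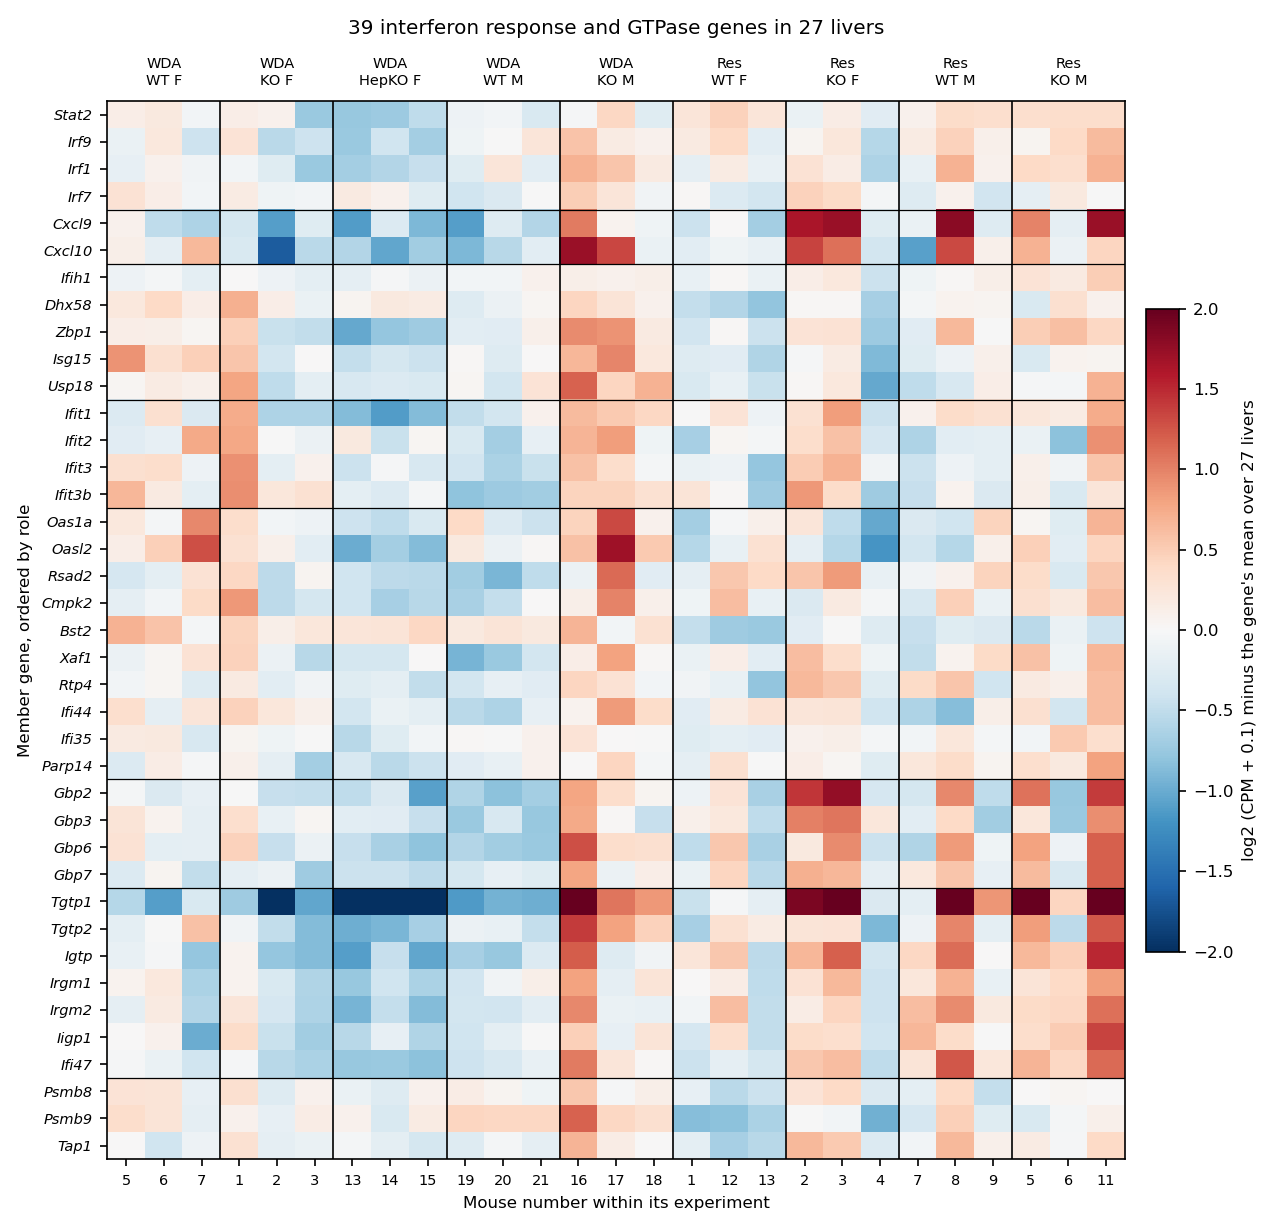
Level of the 39 members (rows, ordered by role and set apart by lines) in 27 livers (columns, grouped by condition with mouse numbers below). Colour gives log2 CPM, with a small constant added, minus the gene's own mean, red above it and blue below it, and stops at 2 and -2. The columns of WDA KO male 16, Res KO females 2 and 3, Res WT male 8 and Res KO male 11 are red across the chemokine, GBP and IRG rows, and the 3 HepKO columns are mostly blue.

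Type I-led and gamma-led scores shared some of their highest livers and differed in others. The gamma-led score was 1.08 in Res KO male 11, 0.99 in WDA KO male 16, 0.91 in Res WT male 8, 0.80 and 0.65 in Res KO females 3 and 2, and 0.58 in Res KO male 5. The type I-led score was highest in WDA KO male 17 (0.70), where the gamma-led score was 0.20, and in WDA KO female 1 (0.54), where the gamma-led score was 0.05. In Res WT male 8 the type I-led score was -0.05. In Res KO male 11 and WDA KO male 16, the highest for gamma-led members, the type I-led scores were 0.50 and 0.43, the next highest after those of WDA KO male 17 and WDA KO female 1.

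**Figure D2:**
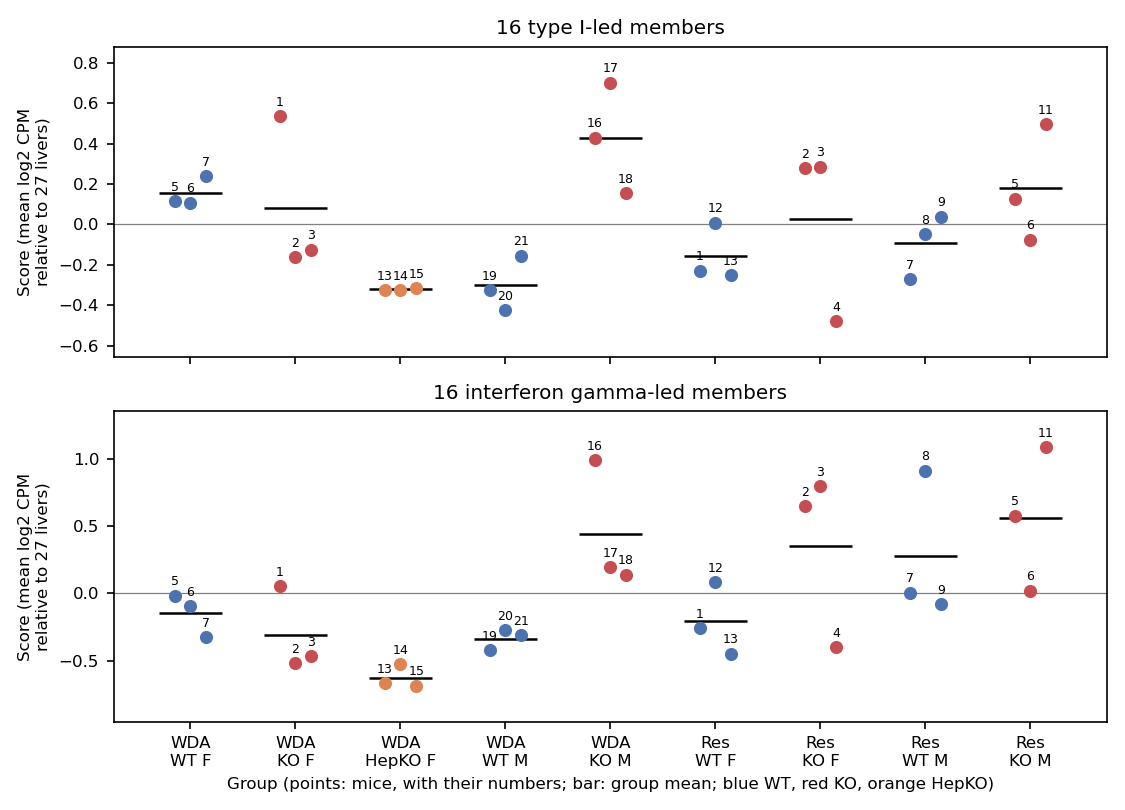
Scores of the type I-led and the interferon gamma-led members by group; each point is a liver with its mouse number and each bar is the mean of 3 mice. All 3 HepKO livers lie between -0.33 and -0.31 in the upper panel, while the KO groups are spread over a wide range in both panels.

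Markers of other cell types differed between the same livers. The summed level of 8 T cell markers was 13.3 and 10.6 CPM in Res KO females 2 and 3 against 4.91 CPM in mouse 4, and 12.2 CPM in Res WT male 8 against 8.16 and 7.39 CPM in the other two. In Res KO males it was 13.4, 6.69 and 15 CPM in mice 5, 6 and 11, and in WDA KO males 10.6, 7.92 and 4.86 CPM in mice 16, 17 and 18. All 8 T cell markers were listed and only *Cd8b1* was at 0, in 1 library. The summed level of 7 NK cell markers was 11.0 and 9.42 CPM in Res KO females 2 and 3 and 3.96 CPM in mouse 4, with *Ncr1* at 0 in 2 and *Eomes* at 0 in 7 of the 27 libraries. Markers of cholangiocytes (6 of 6 listed) summed to 466 CPM in WDA WT female 7 and 529 CPM in WDA KO male 17, against 17.3 to 22.3 CPM and 24.1 to 105 CPM in the other mice of these groups, with *Krt19*, *Krt7* and *Cldn4* each at 0 in 1 library. Recruited macrophage and monocyte markers (8 of 8 listed, with *Spp1* in both lists) summed to 909 and 820 CPM in the same 2 livers. *Oasl2*, an OAS-like antiviral protein, was highest in these 2 livers at 12.2 and 16.1 CPM, as was *Oas1a*, an enzyme that activates RNase L, at 6.92 and 8.84 CPM. Cholangiocyte markers also summed to 241 CPM in Res WT female 13, 201 CPM in Res KO male 5 and 157 CPM in Res WT male 9. Of these sums, *Spp1* was 204, 171 and 128 CPM. The other Res livers had at most 35.5 CPM. The part of these cells in the member levels was not tested, and in whole liver fewer cells of a type and less RNA per cell cannot be told apart.

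**Figure D3:**
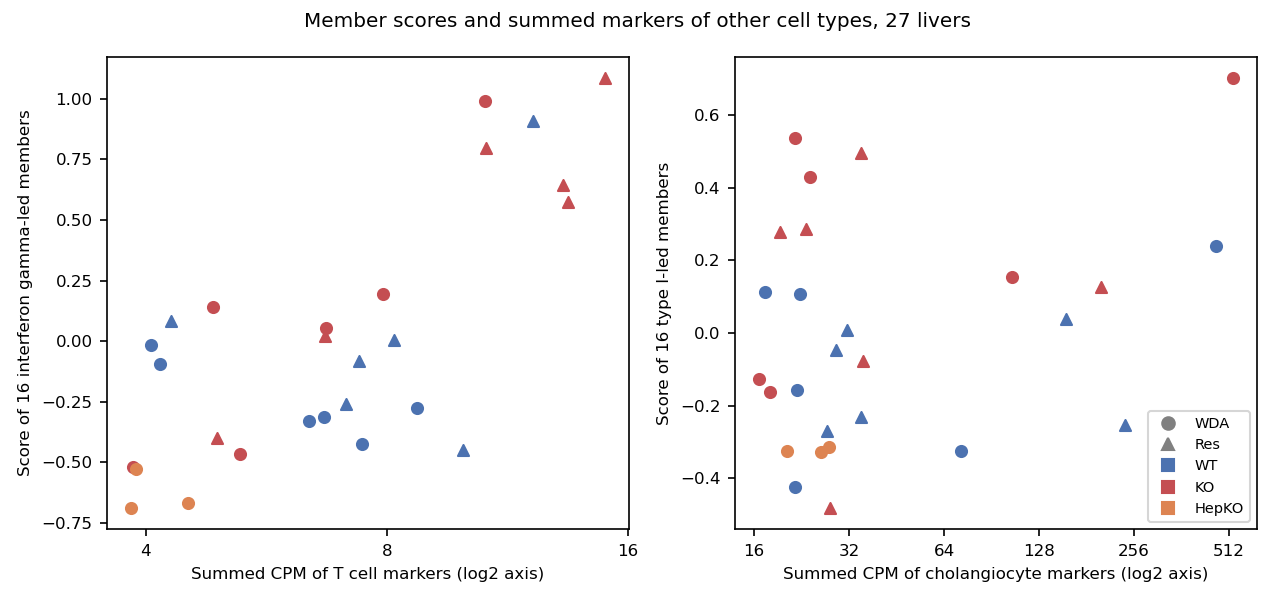
Each point is a liver; circles are WDA and triangles Res mice, in blue for WT, red for KO and orange for HepKO. Left, score of the gamma-led members against the summed CPM of T cell markers, where the livers with scores of 0.58 and above have sums of 10.6 to 15; right, score of the type I-led members against the summed CPM of cholangiocyte markers, where WDA KO male 17 is at the upper right.

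In WDA males, every member had a higher mean level in KO than in WT livers. The 39 members were chosen with earlier results of these data known, so their shares here and in later comparisons are a description. No member was called at an adjusted p-value under 0.05 by edgeR, nor was any other gene (0%), while 27 of the 39 had an unadjusted p-value under 0.05, all higher in KO, against 5.56% of all genes tested. In 25 members all 3 KO livers lay above all 3 WT livers, against 7.12% of all genes. The median log2 fold change of the members was 0.82, where that of all genes tested was -0.0032 and lay between -0.029 and 0.039 in every comparison made here. DESeq2 called 4 members higher in KO, *Tgtp1*, *Gbp6*, *Gbp2* and *Ifit3b*, against 0.113% of all genes. Every group of members by role had positive medians, from 0.29 for the antigen processing genes to 1.42 for the chemokines.

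*Tgtp1* was 3, 3.42 and 3.37 CPM in WDA WT males and 30.6, 14.2 and 12.4 CPM in KO males, a log2 difference of 2.56 ± 0.36 (SE; edgeR, unadjusted p = 0.000219, adjusted p = 0.588; DESeq2, adjusted p = 3.48e-07). The groups did not overlap, and mouse 16 was the highest. Summed with *Tgtp2*, to which reads may be shared, the levels were 7.99, 8.30 and 7.24 CPM in WT and 45.1, 23.7 and 19.9 CPM in KO males. *Cxcl10*, a chemokine for CXCR3-bearing T cells, was 1.74, 2.26 and 2.87 CPM in WT and 11.3, 8.63 and 3.06 CPM in KO males, with a log2 difference of 1.77 ± 0.48. KO mouse 18 lay just above the highest WT mouse.

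*Gbp6*, a GTPase that attacks vacuoles holding pathogens, was 7.87, 7.26 and 7.05 CPM in WT and 29.1, 15.1 and 14.8 CPM in KO males (log2 difference 1.43 ± 0.28). *Ifit3b*, an IFIT protein, was 1.68, 1.77 and 1.81 CPM in WT and 4.13, 4.11 and 3.72 CPM in KO males (1.21 ± 0.20). In both genes the KO livers lay clearly above tight WT values. Among the 16 type I-led members 14 had an unadjusted p-value under 0.05, and among the 16 gamma-led members 11 did. The 4 IFIT genes were separated between the groups without exception, while *Ifih1* (0.14), *Bst2* (0.15) and *Ifi35* (0.09) showed little difference on the log2 scale. The 8 T cell markers summed to 6.68 to 8.73 CPM in WT and 4.86 to 10.6 CPM in KO males, so the groups overlapped. Among them, *Cd4* was 5.05, 5.19 and 4.81 CPM in WT and 3.96, 1.84 and 2.10 CPM in KO males. The other 7 summed to 2.40, 3.54 and 1.87 CPM in WT and 6.64, 6.07 and 2.76 CPM in KO males. On this sum, taken after the data were seen, mice 16 and 17 lay above every WT male. Hepatocyte marker sums did not overlap, at 94470, 93550 and 99820 CPM in WT and 81170, 79000 and 89900 CPM in KO males. Cholangiocyte sums were 24.1, 529 and 105 CPM in KO and 72.4, 21.6 and 21.9 CPM in WT males, and NK cell marker sums were 6.23, 4.44 and 2.34 CPM in KO against 2.22, 2.50 and 1.69 CPM in WT males; their part in the result was not tested. Without KO mouse 16 the median was 0.47, with 36 members higher and 3 lower in KO and 20 at an unadjusted p-value under 0.05, and without KO mouse 17 it was 0.67, with 30. Without WT mouse 19 or WT mouse 20 the number was 15, and all 39 members were still higher in KO.

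**Figure D4:**
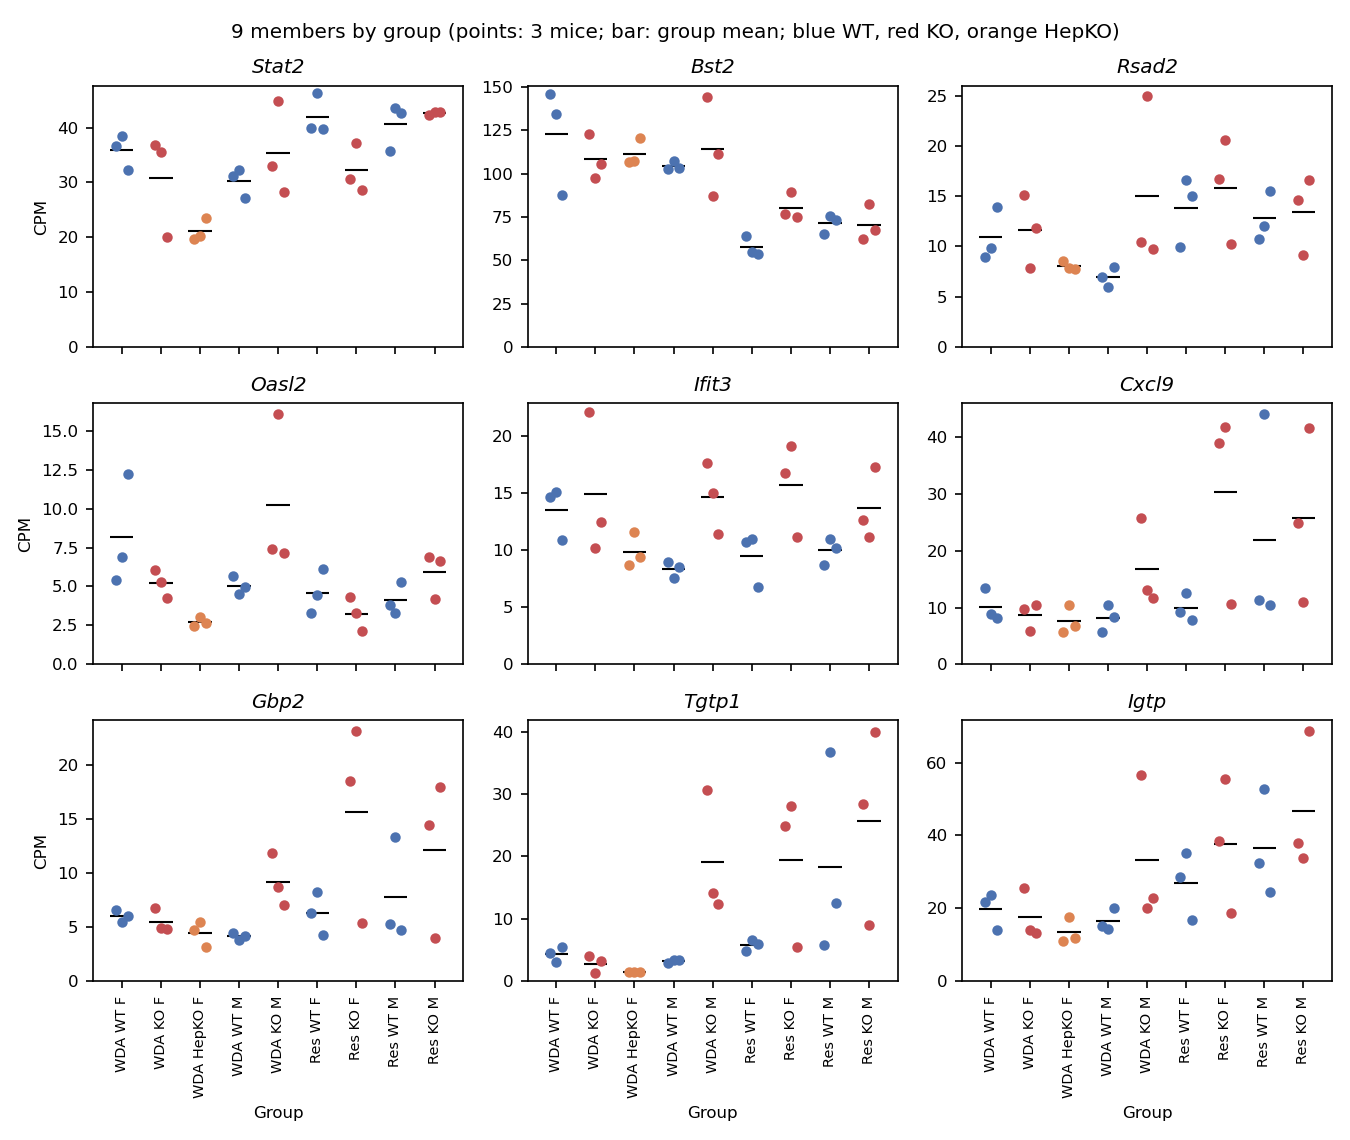
CPM of 9 members in each of the 9 groups; each point is a liver, each bar the mean of 3 mice, and each axis starts at 0. Stat2 and Oasl2 are low in the 3 HepKO livers, Bst2 is low in the Res groups, and Tgtp1 is near 3 CPM in WDA WT males and between 12.4 and 30.6 CPM in WDA KO males.

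In WDA females, the KO livers did not show this difference. No member was called by edgeR or DESeq2 (0% of all genes by edgeR), and 1 of 39 had an unadjusted p-value under 0.05 and lay apart, lower in KO, against 1.7% of all genes for the p-value and 3.63% for groups that did not overlap. That member was *Cxcl10*, at 2.69, 0.993 and 2.27 CPM in KO and 3.64, 2.95 and 5.29 CPM in WT females (log2 difference -1.04 ± 0.43). The median log2 fold change was -0.12, with 12 members higher and 27 lower. *Oasl2* (-0.69 ± 0.34), *Tgtp2* (-0.66 ± 0.32), *Tgtp1* (-0.64 ± 0.43) and *Isg15* (-0.51 ± 0.29), a ubiquitin-like modifier, had the next largest differences, with groups that overlapped. Without KO mouse 1, the mouse with *Kdm5b* in the WT range, all 39 members were lower in KO and the median was -0.33, with 3 at an unadjusted p-value under 0.05.

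HepKO females had lower mean levels than WT females for all 39 members, with a median log2 fold change of -0.45. No member was called by edgeR (0% of all genes), and 18 had an unadjusted p-value under 0.05, all lower, against 5.25% of all genes tested. In 17 members the groups did not overlap, against 8.5% of all genes. DESeq2 called 5 lower in HepKO, *Stat2*, *Tgtp1*, *Oasl2*, *Isg15* and *Zbp1*, against 0.878% of all genes. *Stat2*, the type I interferon transducer, was 36.7, 38.5 and 32.3 CPM in WT and 19.8, 20.3 and 23.6 CPM in HepKO females (log2 difference -0.77; DESeq2, adjusted p = 0.000182). The HepKO values lay close together and below every WT value.

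*Oasl2* was 5.42, 6.90 and 12.2 CPM in WT and 2.43, 3.04 and 2.65 CPM in HepKO females (-1.62 ± 0.34). Its highest WT value was that of mouse 7, and the groups did not overlap without it either. *Tgtp1* was 4.47, 3.06 and 5.42 CPM in WT and 1.52, 1.46 and 1.52 CPM in HepKO females (-1.54 ± 0.28). *Isg15* was 8.35, 5.56 and 6.21 CPM in WT and 3.16, 3.43 and 3.27 CPM in HepKO females (-1.04 ± 0.21). *Tgtp2* (-1.06 ± 0.27) and *Cxcl10* (-1.05 ± 0.30) also lay apart. The antigen processing genes differed least, with a median of -0.18. Without WT mouse 7, the liver with high cholangiocyte markers, edgeR called 8 members, all lower in HepKO (*Stat2*, *Oasl2*, *Irgm1*, *Ifi47*, *Tgtp1*, *Isg15*, *Irgm2* and *Zbp1*), where it called 2.8% of all genes. Kupffer cell markers (7 of 7 listed, none at 0) summed to 886, 557 and 377 CPM in HepKO and 264, 348 and 416 CPM in WT females, and T cell markers to 3.83 to 4.51 and 4.05 to 6.39 CPM. Their part in the result was not tested.

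Between the 2 Cre vectors, HepKO livers had lower means than KO livers for 37 of the 39 members, with a median of -0.39. There were 0 members called by edgeR (0.0162% of all genes) or DESeq2, and 12 had an unadjusted p-value under 0.05, all lower, against 2.68% of all genes. In 9 members the groups did not overlap, against 5.05%. *Ifit1*, an IFIT protein that binds viral RNA ends, was 8.83, 3.36 and 3.38 CPM in KO and 2.82, 2.36 and 2.82 CPM in HepKO females (-0.96 ± 0.37). KO mouse 1 was far above the other two, which were still above the HepKO values. *Oasl2* (-0.95 ± 0.21), *Zbp1* (-0.77 ± 0.30), a sensor of Z-form nucleic acids, and *Ifit3b* (-0.70 ± 0.24) lay apart, and *Tgtp1* (-0.92 ± 0.37) overlapped. This comparison shares its HepKO mice with the one above, and it rested on KO mouse 1: without that mouse the median was -0.13, with 1 member at an unadjusted p-value under 0.05 and 9 members higher in HepKO.

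In Res females, 30 of the 39 members had higher means in KO than in WT livers, with a median of 0.39. No member was called by edgeR (0% of all genes), and 11 had an unadjusted p-value under 0.05 and were higher, against 7.52% of all genes, with 1 lower, against 11.7%. DESeq2 called 4 higher in KO, *Cxcl9*, *Tgtp1*, *Bst2* and *Tap1*, against 1.84% of all genes. In *Ifit3*, *Gbp3*, *Bst2* and *Ifi35*, 4 members, all KO livers lay above all WT livers, against 11.6% of all genes, and in *Stat2* below them, against 14%. An unadjusted p-value under 0.05 was given for 6 of the 16 gamma-led and 3 of the 16 type I-led members. *Cxcl9*, the chemokine most bound to interferon gamma, was 9.25, 12.6 and 7.75 CPM in WT and 39, 41.8 and 10.5 CPM in KO females (log2 difference 1.62 ± 0.46; edgeR, adjusted p = 0.14). KO mouse 4 lay within the WT range and the other two above it.

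*Tgtp1* was 4.91, 6.62 and 5.91 CPM in WT and 24.9, 28.1 and 5.46 CPM in KO females (1.73 ± 0.52). *Gbp2*, a GTPase that coats pathogen vacuoles, was 6.32, 8.22 and 4.30 CPM in WT and 18.5, 23.1 and 5.35 CPM in KO females (1.31 ± 0.49). The same mouse 4 lay among the WT livers in both. *Cxcl10* (1.02 ± 0.41) overlapped likewise, and *Gbp3* (0.85 ± 0.28) lay just apart, with 7.86 CPM in mouse 4 and 7.78 CPM in the highest WT liver. The median without mouse 4 was 0.56, with 17 members at an unadjusted p-value under 0.05, and edgeR then called *Tgtp1* (0.0156% of all genes). Without KO mouse 3 the median was 0.15, with 5 members at such a p-value, and without KO mouse 2 it was 0.27, with 3. T cell marker sums were 7.11, 4.31 and 9.97 CPM in WT and 13.3, 10.6 and 4.91 CPM in KO females, and NK cell sums 3.89, 3.42 and 4.44 CPM in WT and 11.0, 9.42 and 3.96 CPM in KO females. Both were highest in KO mice 2 and 3, and their part in the result was not tested. *Stat2* went the other way, at 39.9, 46.2 and 39.7 CPM in WT and 30.7, 37.3 and 28.6 CPM in KO females (-0.39), with groups that did not overlap.

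In Res males, 35 members had higher means in KO livers, with a median of 0.25. Here 0 members were called by edgeR (0% of all genes) or DESeq2, 1 had an unadjusted p-value under 0.05 and was higher, against 0.998% of all genes, and *Ifit3* (0.46), the member with that p-value, and *Ifih1* (0.30) lay apart, 2 members against 2.16% of all genes. The 5 largest differences were those of *Ifi44* (0.66 ± 0.38), *Gbp2* (0.64 ± 0.55), *Gbp6* (0.55 ± 0.41), *Oasl2* (0.53 ± 0.28) and *Ifit2* (0.51 ± 0.41). In all 5 the groups overlapped. *Gbp2* was 5.31, 13.3 and 4.75 CPM in WT males 7, 8 and 9 and 14.4, 3.98 and 18 CPM in KO males 5, 6 and 11, so single livers of both groups were high. The median was 0.29 without mouse 5, whose female-biased transcripts are noted above, and 0.017 without mouse 11. Without WT mouse 8 it was 0.42.

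**Figure D5:**
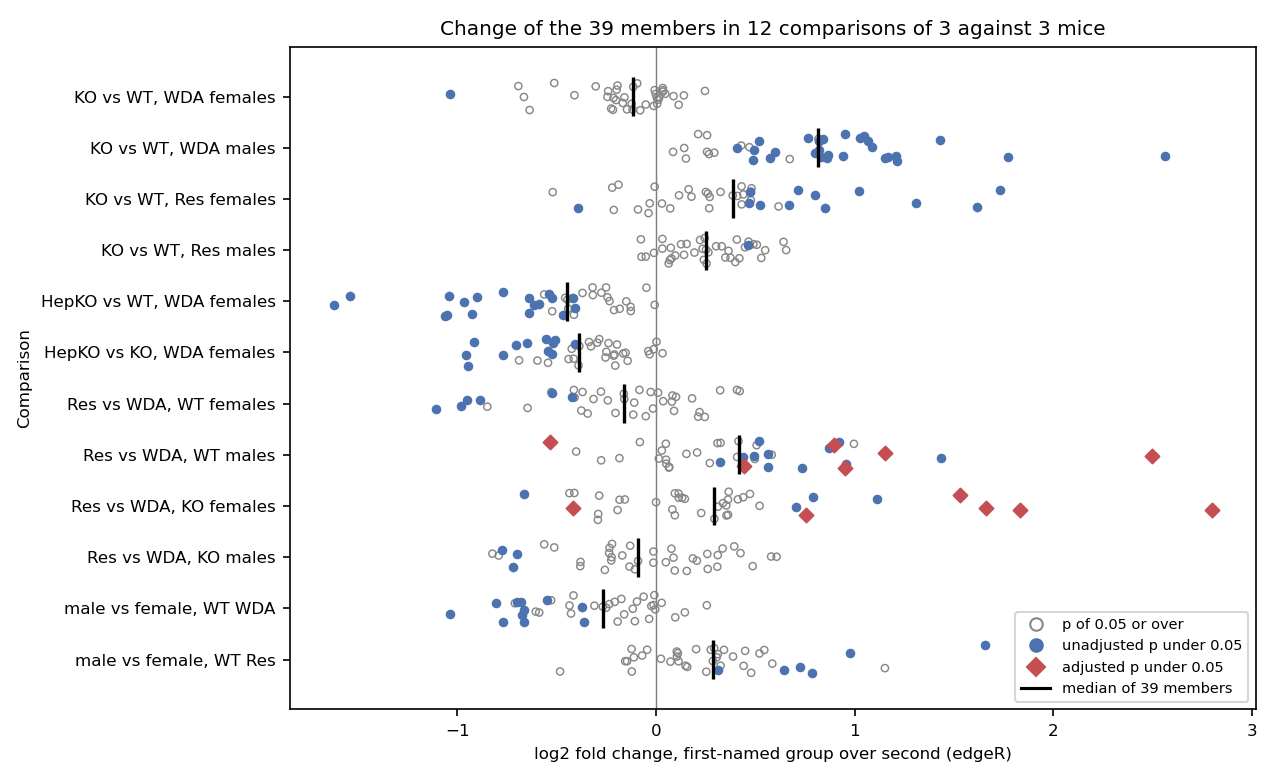
Log2 fold change (edgeR) of the 39 members in 12 comparisons of 3 against 3 mice, each point a member and each bar the median. The members lie to the right for KO against WT in WDA males (median 0.82) and to the left for HepKO against WT in WDA females (median -0.45), and adjusted p-values under 0.05 occur in Res against WDA for WT males and KO females.

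Members passed the adjusted threshold in the comparison of Res with WDA livers, where stage and experiment coincide. In WT males, edgeR called 6 of 39 members (15.4%), against 11% of all genes tested, 5 of them higher in Res (4.99% of all genes) and *Bst2* lower (5.98%). DESeq2 called 8 higher and 1 lower (5.98% and 7.91% of all genes). The groups did not overlap in 10 members that were higher and 1 that was lower (16.6% and 19.2% of all genes), and 16 and 1 had an unadjusted p-value under 0.05 (15.3% and 15.4%). The IRGs had a median log2 fold change of 0.95 and all 7 were higher. *Irgm2*, which keeps other IRGs inactive on host membranes, rose from 35.8, 35.4 and 39.8 CPM in WDA to 71.1, 89.3 and 52.9 CPM in Res livers (0.95 ± 0.17; edgeR, adjusted p = 0.0154). *Igtp*, which encodes the related Irgm3, rose from 15.2, 14.2 and 20.1 CPM to 32.4, 52.9 and 24.4 CPM (1.16 ± 0.26; edgeR, adjusted p = 0.0321). *Tgtp1* rose from 3, 3.42 and 3.37 CPM to 5.82, 36.8 and 12.5 CPM (2.50 ± 0.60; edgeR, adjusted p = 0.0366). The groups did not overlap in these genes, and Res mouse 8 was the highest in each.

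*Rsad2*, which encodes viperin, an enzyme that makes a chain-terminating nucleotide, rose from 6.97, 5.98 and 7.93 CPM in WDA to 10.8, 12.0 and 15.6 CPM in Res WT males (0.90 ± 0.19; edgeR, adjusted p = 0.0254). *Stat2* rose from 31.2, 32.4 and 27.2 CPM to 35.7, 43.5 and 42.6 CPM (0.44 ± 0.12; edgeR, adjusted p = 0.048). *Bst2* fell from 103, 108 and 103 CPM to 65.1, 75.8 and 73.5 CPM (log2 difference -0.53 ± 0.09; edgeR, adjusted p = 0.0137). The groups were apart in all 3 genes, and in *Rsad2* mouse 8 did not stand out. *Cxcl9* (1.44 ± 0.54), *Cxcl10* (1.0 ± 0.54) and *Ifi47* (0.96 ± 0.26), a further IRG, did not pass the adjusted threshold. Without Res mouse 8, *Irgm2*, *Bst2* and *Psmb9* were called (3.97% of all genes), and without any single WDA mouse no member was called (0.835% to 2.69% of all genes). Without Res mouse 9, the liver of its group with the highest cholangiocyte markers, 13 members were called (13.5% of all genes). The 8 T cell markers summed to 7.39 to 12.2 CPM in Res and 6.68 to 8.73 CPM in WDA WT males, so the groups overlapped. Among them, *Cd4* was lower in Res, at 1.90, 1.96 and 1.69 CPM against 5.05, 5.19 and 4.81 CPM. The other 7, a sum taken after the data were seen, were 6.26, 10.2 and 5.70 CPM in Res against 2.40, 3.54 and 1.87 CPM. NK cell sums were 5.56, 5.87 and 3.64 against 2.22, 2.50 and 1.69 CPM. The T cell sum without *Cd4* and the NK cell sum lay apart, and their part in the result was not tested.

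In KO females, edgeR called 6 of 39 members (15.4%) between Res and WDA, against 20.4% of all genes, 5 higher in Res and *Bst2* lower, each against 10.2%. DESeq2 called 6 higher and 1 lower (10.2% and 10.7% of all genes). *Cxcl9* and *Tgtp1* were higher without overlap and *Bst2* lower, 2 and 1 members (18.5% and 22% of all genes), and 8 and 2 had an unadjusted p-value under 0.05 (18% and 17.8%). The share of members called was thus below that of all genes. The members that rose were chemokines, GBPs and *Tgtp1*. *Tgtp1* rose from 4.03, 1.32 and 3.20 CPM in WDA to 24.9, 28.1 and 5.46 CPM in Res livers (2.80 ± 0.57; edgeR, adjusted p = 0.0104). *Cxcl9* rose from 9.76, 5.79 and 10.5 CPM to 39, 41.8 and 10.5 CPM (1.83 ± 0.44; edgeR, adjusted p = 0.0196). In both, mouse 4 was the lowest Res liver, close to the highest WDA value. Summed with *Tgtp2*, *Tgtp1* levels were 9.18, 5.13 and 6.11 CPM in WDA and 31.4, 34.6 and 8.31 CPM in Res livers. On this sum the groups overlapped.

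*Cxcl10* rose from 2.69, 0.993 and 2.27 CPM to 8.66, 7.29 and 2.56 CPM (1.66 ± 0.46; edgeR, adjusted p = 0.0314). *Gbp2* rose from 6.72, 4.91 and 4.83 CPM to 18.5, 23.1 and 5.35 CPM (1.53 ± 0.43; edgeR, adjusted p = 0.0337), and *Gbp3* by 0.76 ± 0.23 (edgeR, adjusted p = 0.0473). In these genes mouse 4 lay among the WDA livers. *Bst2* fell from 123, 97.8 and 106 CPM to 76.5, 89.2 and 75.0 CPM (-0.42 ± 0.12; edgeR, adjusted p = 0.0386), without overlap. *Igtp* (1.11 ± 0.36) did not pass. Without Res mouse 4, 8 members were called, all higher in Res and without *Bst2* (8.14% of all genes), while without Res mouse 2 *Tgtp1* was called and no other member (10.6% of all genes). Without Res mouse 3 or WDA mouse 2, *Tgtp1* and *Bst2* were called (12.9% and 14.5% of all genes), and without WDA mouse 3 *Cxcl9* as well (17.4%). T cell marker sums were 13.3, 10.6 and 4.91 CPM in Res and 6.72, 3.86 and 5.24 CPM in WDA KO females, and their part in these values was not tested.

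In WT females no member was called between Res and WDA by edgeR (0% of all genes), and 6 had an unadjusted p-value under 0.05, all lower in Res, against 6.9% of all genes. Without overlap were 7 members that were lower and 1, *Stat2*, that was higher (9.34% and 11% of all genes). The median was -0.16. DESeq2 called 4 lower in Res, *Bst2*, *Dhx58*, *Psmb9* and *Isg15*, against 1.55% of all genes. *Bst2* was 146, 134 and 88.0 CPM in WDA and 64.3, 54.7 and 53.7 CPM in Res WT females (-1.11 ± 0.21; edgeR, adjusted p = 0.194). *Isg15* was 8.35, 5.56 and 6.21 CPM in WDA and 3.67, 3.75 and 2.88 CPM in Res (-0.98 ± 0.25). *Psmb9* (-0.95 ± 0.20), an immunoproteasome subunit, and *Dhx58* (-0.89 ± 0.17), which encodes the RNA sensor LGP2, were also apart. *Oasl2* (-0.85 ± 0.39) overlapped.

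In KO males, with no member called by edgeR (0% of all genes) or DESeq2, 3 had an unadjusted p-value under 0.05 and were lower in Res, against 3.21% of all genes. Values lay apart in 5 members that were lower and in *Ifih1*, which was higher (5.37% and 7.77% of all genes). The median was -0.090. *Cxcl10* (-0.82 ± 0.46) overlapped, whereas *Oasl2* (-0.79 ± 0.36), *Psmb9* (-0.78 ± 0.27), *Isg15* (-0.72 ± 0.26), *Bst2* (-0.70 ± 0.23) and *Ifit3b* (-0.38) lay apart, and *Psmb9*, *Isg15* and *Bst2* were those with the p-value. Without Res mouse 5 the median was -0.047. *Bst2* was therefore lower in Res than in WDA livers without overlap in all 4 pairs of groups. In the single pairs 5.37% to 22% of all genes were lower in this way, and the share over all 4 pairs was not counted. *Bst2* was at 53.7 to 89.2 CPM in the 12 Res livers and 87.1 to 146 CPM in the 15 WDA livers. Res KO female 3 (89.2 CPM) was the highest Res liver, and WDA KO male 17 (87.1 CPM) and WDA WT female 7 (88.0 CPM) were the lowest WDA livers.

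Between male and female WT livers, 0 members were called by edgeR at either stage (0.851% of all genes on WDA and 0.545% in Res), and the sex difference was not tested between the stages. On WDA, 35 of the 39 members were lower in males, with a median of -0.27, and 11 had an unadjusted p-value under 0.05, all lower, against 7.31% of all genes. Males lay apart in 10 members that were lower and in *Psmb9*, which was higher (11.2% and 13% of all genes). DESeq2 called *Ifit3* lower (2.1% of all genes), at 14.6, 15.1 and 10.9 CPM in females and 8.96, 7.51 and 8.55 CPM in males (-0.70 ± 0.16). *Ifit3b* (-1.04 ± 0.28), *Cxcl10* (-0.80 ± 0.32) and *Xaf1* (-0.77 ± 0.24), a pro-apoptotic factor, also lay apart, and *Oasl2* (-0.71 ± 0.33) overlapped. Without WT female 7, edgeR called 5 members, *Ifit3*, *Ifit3b*, *Bst2*, *Gbp6* and *Gbp3*, all lower in males, where it called 8.35% of all genes. In Res livers 31 members were higher in males, with a median of 0.29, and 6 had an unadjusted p-value under 0.05, all higher, against 4.5% of all genes, and DESeq2 called 0. The groups did not overlap in 6, all higher, against 8.09%. *Ifi47* (0.98 ± 0.28), *Psmb9* (0.79 ± 0.24) and *Tap1* (0.73 ± 0.21), a subunit of the peptide transporter for MHC class I, lay apart, while *Tgtp1* (1.66 ± 0.59) and *Cxcl9* (1.15 ± 0.55) overlapped. Without Res WT male 8 the median was 0.086.

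The KO effect itself was compared between sexes and stages as an interaction. On WDA, the effect was larger in males than in females for all 39 members, with a median difference of 0.80 in log2 fold change, and 16 had an unadjusted p-value under 0.05, against 8.35% of all genes in that direction. *Kdm5b* itself differed less between KO and WT in WDA males (log2 difference -0.16 ± 0.09) than in WDA females (-0.54 ± 0.24). It was called in neither, and its part in this result was not tested. No member was called by edgeR (0% of all genes), and DESeq2 called *Tgtp1*, against 0.062% of all genes (difference 3.18 ± 0.60; DESeq2, adjusted p = 0.00211; edgeR, adjusted p = 0.43). *Cxcl10* (2.78 ± 0.68), *Tgtp2* (1.86 ± 0.43), *Oasl2* (1.72 ± 0.52) and *Gbp6* (1.42 ± 0.41) had the next largest differences. With 1 mouse left out at a time, all 39 stayed higher, while the median lay between 0.56 (without KO male 16) and 1.07 (without KO female 1), with 10 (without WT male 19) to 27 members (without KO female 1) at such a p-value. In Res mice the KO effect did not differ in such a way between the sexes, with 16 members larger in males and 23 smaller, *Stat2* and *Oasl2* larger and *Bst2* and *Tap1* smaller at an unadjusted p-value under 0.05, 2 of each (7.02% and 4.45% of all genes), and none called by edgeR (0% of all genes) or DESeq2. The largest differences were those of *Cxcl9* (-1.39 ± 0.89), *Tgtp1* (-1.25 ± 0.98), *Cxcl10* (-1.08 ± 0.75), *Oasl2* (1.03 ± 0.46) and *Tap1* (-0.88 ± 0.35). The median, -0.12, lay between -0.35 (without KO female 4) and 0.11 (without KO female 3) with 1 mouse left out.

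Between stages, the KO effect in females was larger in Res than in WDA mice for 35 members (median difference 0.50), with 9 at an unadjusted p-value under 0.05 against 2.49% of all genes and none called by edgeR (0% of all genes) or DESeq2. These differences were led by *Tgtp1* (2.39 ± 0.75), *Cxcl10* (2.07 ± 0.63), *Cxcl9* (1.88 ± 0.61), *Gbp2* (1.49 ± 0.59) and *Gbp3* (0.86 ± 0.36). With 1 mouse left out the median lay between 0.33 (without Res KO female 3) and 0.73 (without Res KO female 4), with 4 to 15 members at such a p-value. In males it was smaller in Res than in WDA mice for 35 members (median difference -0.40), with 5 at an unadjusted p-value under 0.05 against 1.98% of all genes and none called by edgeR (0% of all genes) or DESeq2. Here *Tgtp1* (-2.06 ± 0.92), *Cxcl10* (-1.80 ± 0.80), *Rsad2* (-1.03 ± 0.47), *Ifit3b* (-0.92 ± 0.32) and *Gbp6* (-0.86 ± 0.57) had the largest differences. With 1 mouse left out the median lay between -0.65 (without Res KO male 11) and -0.25 (without Res WT male 8), with 1 to 7 members at such a p-value. Every interaction uses mice that also enter the single comparisons.

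Interferon genes themselves were near the limit of detection. *Ifnb1*, *Ifna5* and *Ifnk* each had 1 count over all 27 libraries and *Ifnz* had 3. *Ifng* had 28 counts in 17 libraries, with at most 5 in any of them, at 0.297 CPM in Res WT male 8. At this depth, no difference in these ligands was detectable. The receptors were present throughout: *Ifnar1*, a type I receptor chain, ranged only from 36.6 to 50.7 CPM, while *Ifngr1*, the ligand-binding chain for interferon gamma, was at 34.8 and 33.4 CPM in WDA WT female 7 and WDA KO male 17 and at most 26.1 CPM elsewhere.

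Of 142 other genes of the pathway, 125 were in the tables and 110 to 115 were tested in each comparison. They were called by edgeR only in the 2 comparisons in which members were called. In WT males, 9 of 114 rose and 2 fell from WDA to Res, 9.65% against 11% of all genes, led by *Dtx3l* (-0.77), a ubiquitin ligase partner of PARP9, *Gvin1* (1.32), a very large interferon-inducible GTPase, *Mavs* (-0.56), the mitochondrial adaptor of the RNA sensors, *Irf8* (0.77), a myeloid transcription factor, and *Adar* (0.57), an RNA-editing enzyme. In KO females, 14 of 112 rose and 6 fell, 17.9% against 20.4% of all genes, led by *Mavs* (-1.05), *Irf8* (1.05), *Trafd1* (0.61), a negative regulator of innate signalling, *Irf5* (0.99), a factor for inflammatory cytokine genes, and *H2-Q4* (0.64), an MHC class I gene. In KO against WT, WDA males, 91 of 113 were higher in KO with a median of 0.33, and 26 had an unadjusted p-value under 0.05, all higher, 23% against 5.56% of all genes. In HepKO against WT females, 82 of 111 were lower and 29 higher in HepKO, with a median of -0.10. At an unadjusted edgeR p-value under 0.05, 6 were lower, against 5.25% of all genes, and 2 were higher. DESeq2 called 0 of them.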

How the data were processed

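Whole-liver mRNA of 27 mice was sequenced, 1 library per mouse. The authors deposited, for each library, an estimated count and an FPKM value per gene; 7.28% of the count values were not whole. The submitters' processing notes name HISAT, Bowtie2 and GRCm38.p6, and the study tested with DESeq2. Groups were taken from the sample labels.

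Estimated counts were rounded and tested with edgeR 4.0.16 (R 4.3.3, limma 3.58.1): filterByExpr with a minimum count of 10, TMM scaling, quasi-likelihood test across all genes, Benjamini-Hochberg adjustment, adjusted p-value under 0.05. A comparison used only its 2 groups of 3 mice, and an interaction its 4 groups. DESeq2 1.42.0 was an alternative, since the study's own tool differs from the main test here. Fold changes are log2 with SE. Groups "lay apart" when no value overlapped. CPM for display used TMM factors over all 27 libraries, and scores a prior count of 2. Deposited FPKM values were used only to compare levels between genes. With 3 against 3 mice, an adjusted p-value depends on the spread shared across genes. The tests were checked on simulated counts with the same spread for every gene and with genes independent of each other. Members here vary together and single livers stand out, which that check did not cover.

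The 39 members, the leanings and all lists were chosen with earlier results of these data known. In each comparison, members that were called and up to 5 with the largest absolute log2 fold change were named; other pathway genes were named if called, or the 5 with the smallest adjusted p-value; others were named where a result turned on them, after their values were seen. Alternatives were other scaling factors (RLE, upper quartile, none), DESeq2, no filter, at least 10 counts in every library, a spread shared by all 9 groups, each mouse left out, a prior count of 0.5 for scores, and FPKM for levels. Shared transcript words of 50 bases were counted in GENCODE vM21, and promoter windows were those of RefSeq. A gene of the pathway is not reported here.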

Additional observations from a re-analysis of the deposited data

How the results depend on the processing

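Counts of members called by edgeR moved with the tool and the setting. They are listed here only to show how the calls moved, without the share of all genes in each setting. DESeq2 called 4 for KO against WT in WDA males, 4 in Res females, 5 for HepKO against WT, 4 for Res against WDA in WT females, 1 for male against female WT on WDA and 1 for the WDA sex difference of the KO effect, where edgeR called 0. With a spread shared by all 9 groups the counts were 1 for KO against WT in Res females and 1 for HepKO against WT. For Res against WDA they were 4 in WT females and 1 in WT males, where the separate fit called 6. In KO females *Tgtp1*, *Cxcl9*, *Gbp2* and *Cxcl10* stayed called between Res and WDA, and *Bst2* and *Gbp3* did not. Without scaling factors 1 member was called for male against female WT on WDA, and the mean score was 0.156 in WDA WT females and -0.453 in WDA WT males. Leaving out 1 mouse gave 0 to 1 called for KO against WT in Res females, 0 to 8 for HepKO against WT, 0 to 1 for Res against WDA in WT females, 0 to 13 in WT males, 1 to 8 in KO females and 0 to 5 for male against female WT on WDA, and 0 elsewhere. The log2 difference of Ifit2 in Res males ranged from -0.12 (without Res KO male mouse 11) to 0.83 (without mouse 6). The cause was not tested. Without scaling, the median KO effect in males minus females turned from -0.12 to 0.09 in Res mice. All 39 members stayed higher in WDA KO males under every tool, filter and scaling tried. No paired analysis was possible because mouse numbers name different mice in the groups compared. With 3 mice per group, small differences were not detectable.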
